A study of Mus musculus with 14 samples.

Results

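The 6625 NF-κB p65 peaks described here were called in 3T3-L1 cells, a mouse preadipocyte line differentiated into adipocytes, after 1 h with TNFα alone (2404 peaks) or with 10 µM FSK (forskolin) and TNFα together (4221 peaks, FSK/TNFα). They belong to a series of 243429 ChIP-seq peaks and regions, in which 9808 are p65 peaks, from untreated cells, FSK, TNFα, and FSK/TNFα. CRTC2 and the acetylated histone mark H3AcK27 were profiled in the same 4 treatments. Every peak of both p65 lists was a member, and a peak was shared when it overlapped a peak of the other list by at least 1 bp. The 500 best peaks of each list by findPeaks score, the number of tags at distinct positions in a peak, were compared above all.

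Each treatment had 1 library, so no difference between TNFα and FSK/TNFα has a replicate check and no test was made. Intervals in parentheses are 95% Wilson intervals over peaks or genes and cover counting error only. The TNFα library held 26904732 tags, with 0.316% of them in peaks, and the FSK/TNFα library held 20490261 tags, with 0.633% in peaks. Peaks with TNFα were called against an input of untreated cells, and peaks with FSK/TNFα against an input of FSK-treated cells, so the input and the treatment cannot be told apart. The lowest score called was 8 with TNFα and 7 with FSK/TNFα. Most best peaks had little input, but 5 of the 10 best TNFα peaks and 7 of the 10 best FSK/TNFα peaks had at least 5 input tags per 10000000, and all 12 lay on chromosomes 4 and 10. Among the best 500, 15 and 32 peaks reached that input. Chromosome 3 held 18.97% of the TNFα and 16.1% of the FSK/TNFα peaks, compared with 5.58% and 5.49% of the H3AcK27 regions. The adipocyte label was checked at the start sites of 20 adipocyte genes. With TNFα and with FSK/TNFα, 9 of the 20 lay in H3AcK27 regions. Of all 54050 start sites of protein-coding transcripts, 47.8% and 44.9% did, so the adipocyte genes did not stand out and the label was not borne out. The start sites of Adipoq, Plin1, Cfd, Cidec, Cebpa, Slc2a4, Lep, Retn, Cd36, and Adrb3 lay in none under any of the 4 treatments. Of 8 macrophage genes, 3 lay in H3AcK27 regions under either treatment, and Adgre1, Itgam, Ptprc, Lyz2, and Fcgr1 lay in none. None of 6 hepatocyte, 6 neuron, and 6 T cell genes had a start site in a region, and of 6 muscle genes 1 did with TNFα and 0 with FSK/TNFα.

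NF-κB p65 (RelA) is held in the cytoplasm by IκB proteins until a signal such as TNFα leads to their degradation. It then enters the nucleus and binds κB sites, often as a dimer with p50, near genes for chemokines, acute phase proteins, and its own inhibitors. FSK activates adenylyl cyclase and raises cAMP, which activates protein kinase A, inhibits the salt-inducible kinases, and lets CRTC2 enter the nucleus as a coactivator of CREB. H3AcK27 marks active promoters and enhancers, where p65 is often found.

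The sequences below are those of peaks picked as examples, taken from the plus strand of the RefSeq mouse genome (GRCm38.p6, mm10). Only the bases outside exons of protein-coding genes are shown. Capitals mark matches, on either strand, to the classical κB consensus, to the AP1 motif (TGAGTCA or TGACTCA), to the CREB half-site TGACG, and to the C/EBP motif TTGCNNAA. A match describes these letters and is not a measured binding site. The first 5 peaks were shared, among the strongest or at promoters of NF-κB targets. Each held at least 1 κB match, with a C/EBP match beside it near Tmem176b and Gdnf. Not every strong shared peak did, since 54.8% of the 272 shared pairs held a κB match. The Sod2 peak, ranked 6 in both lists and not printed, held none.
Tmem176b, chr6:48829706-48829868: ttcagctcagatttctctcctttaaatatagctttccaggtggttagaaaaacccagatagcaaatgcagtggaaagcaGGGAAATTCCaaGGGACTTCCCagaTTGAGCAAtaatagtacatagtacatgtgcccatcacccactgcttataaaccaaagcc
Gdnf, chr15:7838505-7838667: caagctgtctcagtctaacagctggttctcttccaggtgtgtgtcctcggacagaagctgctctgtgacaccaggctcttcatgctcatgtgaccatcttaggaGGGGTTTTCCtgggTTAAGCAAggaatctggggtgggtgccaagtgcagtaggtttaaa
Cxcl5, chr5:90706379-90706541: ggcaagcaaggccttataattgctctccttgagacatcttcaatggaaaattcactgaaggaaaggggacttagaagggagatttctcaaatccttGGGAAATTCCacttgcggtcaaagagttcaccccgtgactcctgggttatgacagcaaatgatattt
Cxcl1, chr5:90891047-90891209: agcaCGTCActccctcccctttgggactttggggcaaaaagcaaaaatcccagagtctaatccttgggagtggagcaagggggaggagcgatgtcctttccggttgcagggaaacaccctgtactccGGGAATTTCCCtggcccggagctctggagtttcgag
Tnfaip3, chr10:19015411-19015478: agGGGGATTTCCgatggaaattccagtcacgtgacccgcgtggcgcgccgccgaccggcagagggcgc

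The next 2 peaks, near Saa3 and Cebpd, were shared and had 4.96 and 5.65 times as many normalized tags with FSK/TNFα as with TNFα. Neither held a κB match, and the peak near Cebpd held no match to any of the motifs.
Saa3, chr7:46715747-46715909: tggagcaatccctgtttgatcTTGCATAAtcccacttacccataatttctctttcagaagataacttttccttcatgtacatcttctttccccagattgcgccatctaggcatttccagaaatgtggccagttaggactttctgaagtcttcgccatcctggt
Cebpd, chr16:15984434-15984596: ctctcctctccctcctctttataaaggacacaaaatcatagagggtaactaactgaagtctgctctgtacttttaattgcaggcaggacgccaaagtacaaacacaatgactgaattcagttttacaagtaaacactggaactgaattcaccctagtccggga

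The peaks near Sik1 and Ppm1h were shared and had fewer tags with FSK/TNFα, 0.657 and 0.428 times the TNFα values. Both held κB matches, and the peak near Sik1 held a pair of them 4 bases apart. These peaks and those near Saa3 and Cebpd are picked examples, and κB matches did not separate the groups. Of the 103 shared pairs at least 1.5-fold higher with FSK/TNFα, 53.4% held a κB match. Of the 16 at least 1.5-fold lower, 8 did.
Sik1, chr17:31828321-31828483: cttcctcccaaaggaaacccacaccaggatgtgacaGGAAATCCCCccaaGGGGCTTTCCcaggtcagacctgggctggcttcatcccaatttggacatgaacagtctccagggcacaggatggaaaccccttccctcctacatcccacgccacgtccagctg
Ppm1h, chr10:122891546-122891708: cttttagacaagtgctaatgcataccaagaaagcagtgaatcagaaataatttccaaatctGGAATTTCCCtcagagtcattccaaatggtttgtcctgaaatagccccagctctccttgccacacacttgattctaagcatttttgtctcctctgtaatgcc

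The last set shows peaks called in 1 list only. Those at the promoters of Ier3 and Traf1 were called with FSK/TNFα, and the one upstream of Csf2 was called with TNFα. The Traf1 peak held an AP1 match beside a CREB half-site and no κB match.
Ier3, chr17:35821544-35821683: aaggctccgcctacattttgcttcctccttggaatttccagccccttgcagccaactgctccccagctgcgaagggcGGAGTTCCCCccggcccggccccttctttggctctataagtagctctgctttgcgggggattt
Traf1, chr2:34958180-34958342: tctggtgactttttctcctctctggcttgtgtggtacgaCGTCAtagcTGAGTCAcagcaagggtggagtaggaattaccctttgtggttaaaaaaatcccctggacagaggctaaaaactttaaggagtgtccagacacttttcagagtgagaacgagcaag
Csf2, chr11:54252152-54252314: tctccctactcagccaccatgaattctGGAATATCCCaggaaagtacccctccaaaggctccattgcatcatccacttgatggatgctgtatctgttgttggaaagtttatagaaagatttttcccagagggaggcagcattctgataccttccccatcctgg

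The first question was how far the p65 peaks of TNFα-treated cells were called again when FSK was added. Few of all peaks were, and the share depended on rank. In all, 272 pairs of peaks overlapped, which made up 11.3% of the TNFα peaks and 6.44% of the FSK/TNFα peaks. The median score of all peaks was 8 with TNFα and 7 with FSK/TNFα, in each list the lowest score called. Of the best 500, 172 TNFα peaks (34.4%, 30.4 to 38.7) were called anywhere in the FSK/TNFα list, and 177 FSK/TNFα peaks (35.4%, 31.3 to 39.7) anywhere in the TNFα list. The best 500 of both lists met at 124 pairs.

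Among the 100 best TNFα peaks, 71 were called with FSK/TNFα, followed by 41, 25, 24, and 11 in the next groups of 100. The FSK/TNFα peaks gave 65, 40, 33, 26, and 13. Below rank 1000 the share was 5% or less in each group of ranks. A peak that missed the other list was seldom near one of its peaks. Of the best 500 peaks that were not shared, 17 of 328 with TNFα and 13 of 323 with FSK/TNFα had a peak of the other list within 1 kb. The 500th peak fell among ties at score 9 in both lists. It had 16.7 normalized tags (tags per 10000000) with TNFα and 21 with FSK/TNFα, and the first peak past it had the same values. The share of best peaks found in the other list rested on this ranking, since ranking by fold over input, which favors peaks with almost no input, gave 11.6% and 5.0%, and the 250 best peaks by score gave 51.6% and 47.6%.

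**Figure D1:**
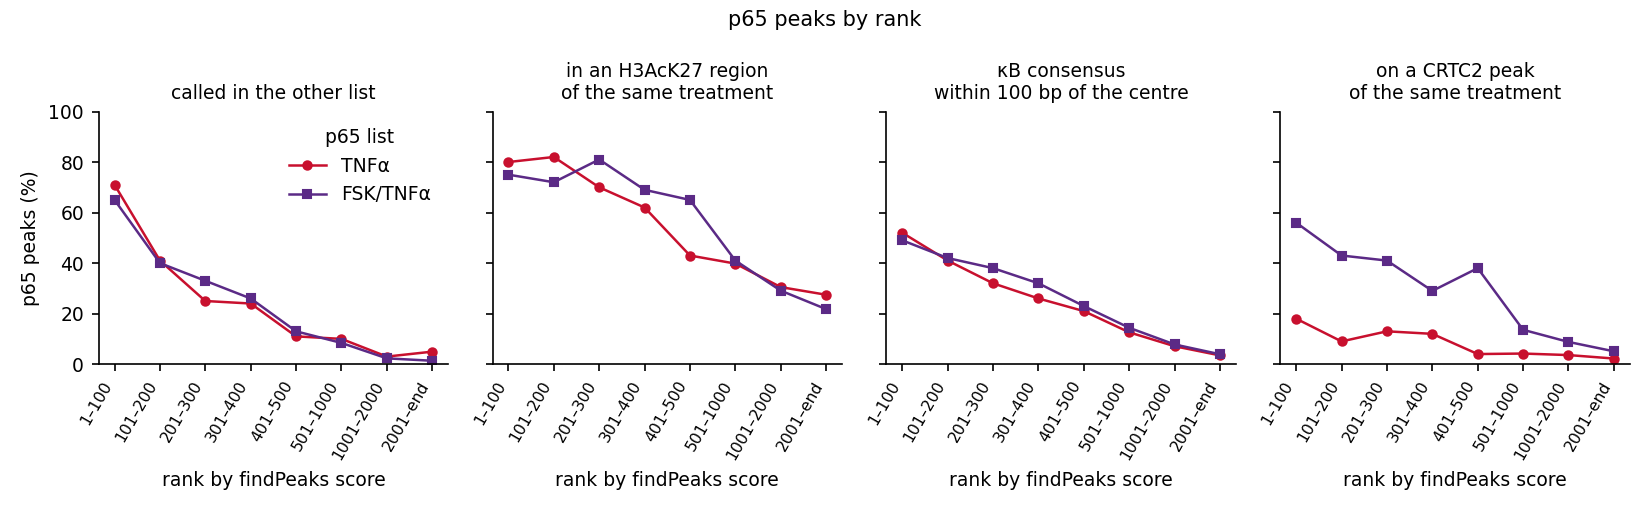
Percent of p65 peaks (y axis) in each group of ranks by findPeaks score (x axis) that were called in the other list, lay in an H3AcK27 region of the same treatment, held a κB consensus match within 100 bp of the peak centre, or overlapped a CRTC2 peak of the same treatment, for TNFα (circles) and FSK/TNFα (squares). The share called in the other list went from 71% (TNFα) and 65% (FSK/TNFα) in the first 100 peaks to 11% and 13% at ranks 401 to 500, where the H3AcK27 shares were 43% and 65%, and the CRTC2 share of the first 100 peaks was 18% with TNFα and 56% with FSK/TNFα.

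The shared pairs with the smallest sum of ranks are described first, so a high rank in both lists was what chose them. The peak near Mdm2, the p53 ubiquitin ligase, in an intron of Cpm, had 121.5 normalized tags with TNFα and 163 with FSK/TNFα and ranked 2 and 1. The peak in an intron of Sod2, the mitochondrial superoxide dismutase and a classical NF-κB target, had 64.7 and 75.6 and ranked 6 in both. The peak 10.7 kb from Tmem176b, a membrane protein of immune cells, had 69.1 and 62.5, and that 27.7 kb from Gdnf, a neurotrophic factor, had 52.0 and 55.1. These 4 differed by less than 1.4-fold between the treatments. The promoter peak of Nfkb2, the p100/p52 subunit and a gene of the lists below, had 55.0 and 59.5 and ranked 14 and 26.

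The other pairs among the 10 with the smallest sum of ranks lay near Gm10306, Tyrp1, Tnfsf15, Vmn1r39, Cxcl5, and Cp. Their ratios of FSK/TNFα to TNFα ran from 0.821 near Cxcl5, a neutrophil chemokine (48.7 and 40 normalized tags, 52.9 kb from its start site), to 1.97 in an intron of Tnfsf15, a TNF family ligand (47.9 and 94.2). At Cp, ceruloplasmin, the values were 43.5 and 63.9. The peaks near Mdm2, Gm10306, Tyrp1, and Tnfsf15 had between 9.19 and 23.3 normalized tags in both inputs. Among the 10 best of each list, the peaks that were not shared lay near Jun, an AP1 subunit, and Fggy, a carbohydrate kinase, with TNFα (114.5 and 70.2 normalized tags), and near Ifng, Mysm1, and Tnfsf8 with FSK/TNFα (111.3, 70.8, and 57.1). All 5 were on chromosomes 4 and 10 with dense input, between 8.09 and 25.4 normalized tags. A TNFα peak with 49.4 normalized tags lay 1861 bp from the Ifng peak.

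At the 272 shared pairs, the number of normalized tags could be set side by side. More pairs were higher with FSK/TNFα than lower. The ratio of FSK/TNFα to TNFα was at least 1.5 at 103 pairs (37.9%, 32.3 to 43.8) and at most 1 over 1.5 at 16 pairs (5.88%, 3.65 to 9.34), and its median was 1.31 (0.39 on the log2 scale, quartiles −0.05 and 0.87). The excess was present in tags scaled to library size and absent in the unscaled findPeaks score. With the score also scaled to library size, an alternative chosen after seeing the data, the median log2 ratio was 0.393. The log2 ratio of the library sizes, TNFα over FSK/TNFα, was 0.393 as well. The cause of the excess was not tested. The TNFα library held 1.31 times as many tags as the FSK/TNFα library, and the findPeaks score, which is not scaled, was higher with FSK/TNFα at 120 pairs, lower at 125, and equal at 27, with a median log2 ratio of 0. Relative to the median ratio, 50 pairs were at least 1.5-fold higher and 50 at least 1.5-fold lower. By fold over input the median log2 ratio turned to −0.06.

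**Figure D2:**
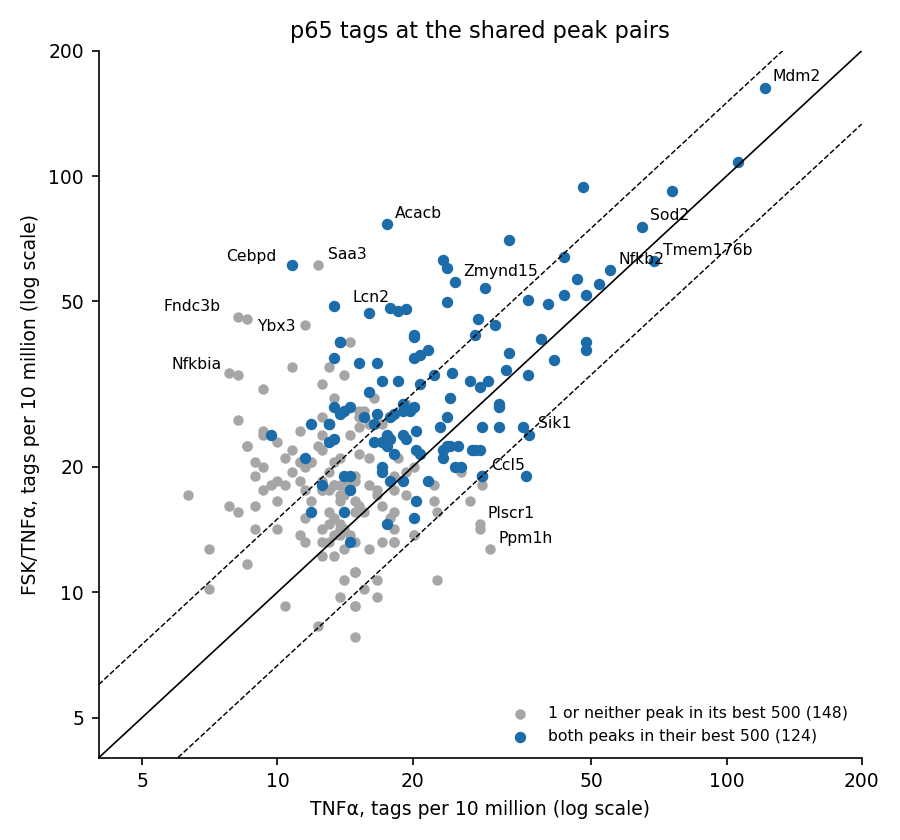
Normalized p65 tags (tags per 10000000, log scales) at the 272 shared pairs with TNFα (x axis) and with FSK/TNFα (y axis), where dark points have both peaks in the best 500, the solid line marks equal values, and the dashed lines mark a 1.5-fold difference. Points lie above the upper dashed line at 103 pairs and below the lower one at 16, with Cebpd, Saa3, and Acacb far above and Ppm1h, Plscr1, Sik1, and Ccl5 below the solid line.

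Among pairs with both peaks in the best 500, the 5 largest ratios lay near Cebpd, Acacb, Susd6, Lcn2, and, with equal values, Ccnl1 and Atg10. The peak 97.2 kb from Cebpd, which encodes C/EBPδ, an early factor of adipogenesis and of the acute phase response, in an intron of Spidr, had 10.8 normalized tags with TNFα and 61.0 with FSK/TNFα (log2 ratio 2.50). Its scores were 12 and 25. The peak in an intron of Acacb, the mitochondrial acetyl-CoA carboxylase, had 17.5 and 76.6 and scores of 14 and 34. The peak 63.4 kb from Susd6, in its intron, had 13.4 and 48.8. The peaks near Cebpd and Susd6 had no κB match in the 200 bp around the centre, and all 3 overlapped a CRTC2 peak of FSK/TNFα-treated cells.

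The promoter peak of Lcn2, a lipocalin that binds iron siderophores and is an acute phase protein, had 16 normalized tags with TNFα and 46.9 with FSK/TNFα. Its scores were 14 and 25. It lay 172 bp upstream of the start site and held a κB match. The promoter peaks of Ccnl1, a cyclin of RNA splicing, and Atg10, an enzyme of autophagosome formation, both had 13.8 and 40. At promoters, 13 of 24 pairs (54.2%, 35.1 to 72.1) were at 1.5-fold or more with FSK/TNFα, and 1 was lower. Elsewhere 90 of 248 pairs (36.3%, 30.6 to 42.4) were, and 15 were lower. The intervals overlapped. The median log2 ratio was 0.78 at promoters (quartiles 0.10 and 1.23) and 0.39 elsewhere. At the promoter of Saa3, a serum amyloid A of the acute phase response, the peak had 12.3 and 61.0 normalized tags, scores of 8 and 29, and ranks of 1529 and 10, so the TNFα peak was at the lowest score called.

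Among pairs within both best 500 lists, the 5 smallest ratios lay near Zfp36l2, Sik1, Ccl5, Scfd2, and Ccl2. The peak 133 kb from Zfp36l2, a protein of mRNA decay, in an intron of Thada, had 35.7 normalized tags with TNFα and 19 with FSK/TNFα (ratio 0.532). The peak 27.4 kb from Sik1, a salt-inducible kinase and CREB target, had 36.4 and 23.9, with scores of 19 and 9. The peak 13.6 kb from Ccl5, a chemokine for T cells and monocytes, had 28.6 and 19, as did the peak in an intron of Scfd2. One of 3 shared peaks near Ccl2, the monocyte chemokine MCP1, had 35.3 and 24.9. The other peaks near Ccl2 had 43.5 and 51.7 (28.7 kb from the start site) and 32.7 and 37.6 (2.35 kb), ratios of 1.19 and 1.15 that were below the median of 1.31 over all pairs. The pairs at Ppm1h and Plscr1, chosen after their values were seen, had smaller ratios and a FSK/TNFα peak outside the best 500. Ppm1h, a phosphatase, had 29.7 and 12.7 in its intron, and Plscr1, an interferon-induced scramblase, had 28.2 and 14.6.

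The features of the pairs that were higher or lower with FSK/TNFα were set side by side. A κB match was present at 53.4% (43.8 to 62.7) of the 103 higher pairs, 8 of the 16 lower pairs, and 56.2% (48.3 to 63.8) of the 153 pairs between. A CRTC2 peak of FSK/TNFα-treated cells overlapped 48.5% (39.1 to 58.1), 9 of 16, and 47.7% (40 to 55.6). Promoters held 12.6% (7.53 to 20.4) of the higher pairs, 1 of the 16 lower pairs, and 6.54% (3.59 to 11.6) of those between. The AP1 motif was present at 27.2% (19.5 to 36.5), 6 of 16, and 21.6% (15.8 to 28.7). The median log2 ratio was 0.39 at the 132 pairs on such a CRTC2 peak and 0.39 at the 140 others.

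The next question was which genes lay nearest the best peaks. The 500 best TNFα peaks had 442 nearest protein-coding genes and the 500 best FSK/TNFα peaks 427. Of these, 147 were in both, 33.3% of the TNFα genes and 34.4% of the FSK/TNFα genes. A shared pair accounted for 112 of the 147, and at the other 35 the lists had separate peaks near the same gene. In each list, 48 genes were nearest to at least 2 best peaks. Gm10306 had the most over both lists (3 with TNFα and 10 with FSK/TNFα), followed by Tusc1 (2 and 5), which was chosen after its values were seen. Then came Ccl2, Cxcl5, and Sik1 with 3 in each list, Ccnl1 with 2 and 4, and Csf1, the macrophage growth factor, with 4 and 2.

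Genes of the NF-κB response were counted within 50 kb of a p65 peak, by role. Of 21842 protein-coding genes, 12.3% had a TNFα peak and 18.3% a FSK/TNFα peak within 50 kb of a start site. For the best 500 peaks the shares were 3.04% and 2.79%. Of 23 chemokines and cytokines, 16 had a TNFα peak and 17 a FSK/TNFα peak, and 15 had a best peak in each list, 14 of them in both. Of 19 NF-κB subunits and inhibitors, 11 had a peak in each list, and 6 and 7 had a best peak. Of 18 genes of TNF receptor signaling and survival, 8 and 11 had a peak, and 4 and 7 a best peak. The 7 genes of this group with a best FSK/TNFα peak included all 4 with a best TNFα peak. In each list, Cxcl1 and Cxcl2 had the same best-ranked peak within 50 kb, as did Cxcl3 and Cxcl5, and Ccl2 and Ccl7. Birc2 and Birc3 also had the same peak, as did Il1a and Il1b with TNFα. Genes that share a peak are not independent counts, and intervals over genes do not allow for this.

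**Figure D3:**
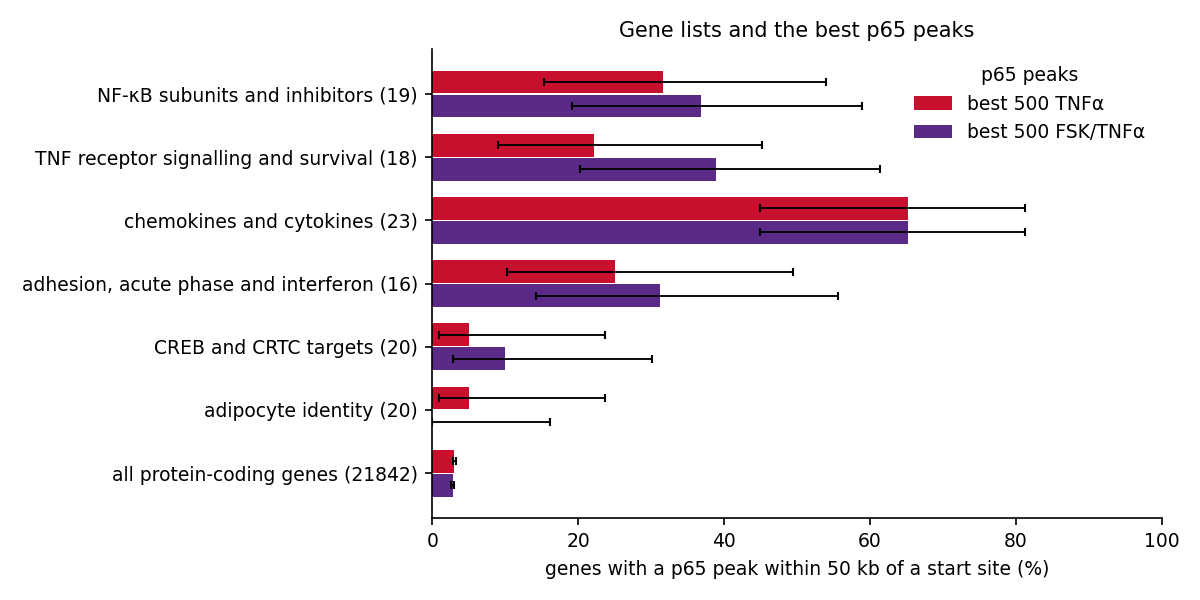
Percent of the genes of each list (number of genes in parentheses) with a best 500 p65 peak within 50 kb of a start site, for TNFα and FSK/TNFα, with 95% Wilson intervals over genes as error bars. Chemokines and cytokines reached 65.2% with either treatment, and all protein-coding genes 3.04% and 2.79%. A peak shared by neighboring genes counts for each of them, which the intervals do not allow for.

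Among the subunits and inhibitors, the promoter peaks of Nfkb2, Nfkbiz, and Tnfaip3 were shared. Nfkbiz, the nuclear IκBζ, had 23.0 normalized tags with TNFα and 24.9 with FSK/TNFα. Tnfaip3, the ubiquitin-editing inhibitor A20, had 18.2 and 21.5. Their values were within 1.2-fold of each other. In an intron of Nfkb1, the p105/p50 subunit, a shared peak 3008 bp from the start site had 31.2 and 27.8, and another 38.1 kb upstream had 13.0 and 25.4.

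Nfkbia, which encodes the inhibitor IκBα, differed by site. Its promoter peak, 98 bp upstream of the start site, was called with TNFα (14.5 normalized tags, score 13, rank 129) and not with FSK/TNFα. This peak was 5.32-fold over input, where at least 4-fold was required. Sites short of a calling limit have no entry, so the missing call does not show that p65 was absent there. A shared peak 27.6 kb away had 8.18 with TNFα and 33.2 with FSK/TNFα. Rel, the c-Rel subunit, had a best peak with FSK/TNFα (24.9, rank 201), in an intron 16.6 kb from the start site, and no TNFα peak within 50 kb. At Tnip1, which encodes an A20-binding inhibitor, the best-ranked peaks lay 996 bp (14.5, TNFα) and 1829 bp (33.2, FSK/TNFα) from different start sites of the gene. Neither was called in the other list, but a shared pair lay 9.17 kb from a Tnip1 start site.

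Among the TNF signaling genes, the promoter peaks of Traf1 and Ier3 were called with FSK/TNFα only. Traf1, an adaptor of TNF receptors, had 28.3 normalized tags and a score of 15 (rank 111), 98 bp upstream of the start site. Ier3, an early gene of cell survival, had 17.1 and a score of 10 (rank 414). Each score was above the lowest score called with TNFα, 8. The Traf1 and Ier3 peaks were 25.7-fold and 5.81-fold over input. Traf2, another adaptor, had a shared intronic peak of 14.1 normalized tags with TNFα and 33.2 with FSK/TNFα, with scores of 9 and 13. A peak between Birc2 and Birc3, inhibitors of apoptosis, had 24.2 and 22.4. For Ripk2, a kinase of innate immune signaling, the best-ranked TNFα peak (23.0) lay 35.3 kb from its start site and was not called with FSK/TNFα. The best-ranked FSK/TNFα peak (20, 5.05 kb) was shared.

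Among the chemokines, the promoter peak of Cxcl1, which attracts neutrophils, had 23.8 normalized tags with TNFα and 22.4 with FSK/TNFα. It was also the best-ranked peak within 50 kb of Cxcl2. The best-ranked peak within 50 kb of Cxcl16 had 24.9 and 55.6, with scores of 23 and 25. The strongest peak within 50 kb of Csf1 had 48.7 and 38.1, that of Lif, an interleukin-6 family cytokine, had 26.8 and 32.2, and a shared peak between Il1a and Il1b had 20.4 and 22.0. The peaks near Cxcl1, Csf1, Lif, and Il1a lay within 1.3-fold of equal values.

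Other chemokine and cytokine genes had a best peak at a site called in 1 list only. With TNFα these were the promoter peaks of Cxcl5 (19 normalized tags, 82 bp upstream) and Il15, a cytokine for natural killer cells (19.7, 282 bp upstream), and a peak 2.57 kb upstream of Csf2, the granulocyte-macrophage growth factor (28.2). With FSK/TNFα they were peaks near Cx3cl1, fractalkine (28.8, 36.2 kb from the start site), Csf2 (25.9, 47.5 kb), and Il1a (22.0, 1.68 kb). The best FSK/TNFα peak near Cxcl3 and Cxcl5 (27.8, 5.51 kb upstream of Cxcl5) overlapped a TNFα peak. The TNFα peaks at Cxcl5, Il15, and Csf2 were 4.06-fold, 16.9-fold, and 145-fold over input, where at least 4-fold was required. Those with FSK/TNFα near Cx3cl1, Csf2, and Il1a were 26.1-fold, 14.1-fold, and 23-fold over input.

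Among 16 genes of adhesion, acute phase, and interferon response, 7 had a TNFα peak and 8 a FSK/TNFα peak, and 4 and 5 a best peak. With FSK/TNFα the promoters of Vcam1, an endothelial adhesion molecule (15.6 normalized tags, rank 427), and Hp, haptoglobin (19.5, rank 285), had peaks that were not called with TNFα. These peaks were 6.07-fold and 5.31-fold over input. At the promoter of C3, the central complement protein, the values were 10.0 with TNFα and 22.9 with FSK/TNFα, at ranks of 1926 and 137. The C3 scores were 8 and 14. With TNFα, peaks near Irf1, an interferon regulatory factor (23.0, 48.6 kb from its start site), and Ptges, prostaglandin E synthase (14.5, 24.1 kb), were among the best 500, and the Ptges peak was shared.

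Of 20 CREB and CRTC targets, 5 had a TNFα peak and 6 a FSK/TNFα peak, and 1 and 2 a best peak. The best peaks were near Sik1 in both lists and, with FSK/TNFα, in an intron of a gene 2.17 kb from the start site of Junb, an AP1 subunit (13.4 and 20.5 normalized tags). Of 20 adipocyte identity genes, 5 and 7 had a peak, against 12.3% and 18.3% of all genes, and 1 and 0 a best peak. The single best peak, with TNFα, lay 30.7 kb from Adrb3, the β3 adrenergic receptor, at the promoter of another gene.

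Position differed little between the lists. Promoters (1000 bp before to 100 bp after a start site) held 6.4% (4.57 to 8.90) of the best 500 TNFα peaks and 7.8% (5.76 to 10.5) of the best FSK/TNFα peaks. Introns held 41.0% (36.8 to 45.4) and 37.2% (33.1 to 41.5), exons 2.4% in both, and the rest, 50.2% and 52.6%, were intergenic. The median distance to a start site was 25.2 kb and 23.2 kb. Ranking by fold over input lowered the promoter share to 3.0% in both lists. More than 50% of the bases were in repeats at 53 of 328 best TNFα peaks that were not shared (16.2%, 12.6 to 20.5), at 27 of 323 with FSK/TNFα (8.36%, 5.81 to 11.9), and at 3 of the shared best peaks of each list.

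Most best peaks lay in H3AcK27 regions of the same treatment, 67.4% (63.2 to 71.4) with TNFα and 72.4% (68.3 to 76.1) with FSK/TNFα. Shared peaks did so in 94.8% (90.4 to 97.2) and 89.3% (83.8 to 93.0), and best peaks that were not shared in 53.0% (47.6 to 58.4) and 63.2% (57.8 to 68.2). Below the best 500 the shares were 32.3% (30.2 to 34.4) and 26.3% (24.9 to 27.8). In untreated cells, H3AcK27 regions held 64.0% of the best TNFα peaks and 73.2% of the best FSK/TNFα peaks. Of the 337 best TNFα peaks in a region of their own treatment, 311 (92.3%, 88.9 to 94.7) also lay in a region of untreated cells, as did 341 of 362 (94.2%, 91.3 to 96.2) with FSK/TNFα. The best FSK/TNFα peaks overlapped H3AcK27 regions more often than the best TNFα peaks in each of the 4 H3AcK27 lists. They did so even with the regions of TNFα-treated cells, 79.4% (75.6 to 82.7) and 67.4%. The order of the lists in their own treatment rested on the ranking, since the 250 best peaks gave 81.2% with TNFα and 75.2% with FSK/TNFα, and ranking by fold over input gave 34.6% and 22.4%. The H3AcK27 regions covered 110 Mb with TNFα and 82.9 Mb with FSK/TNFα.

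The H3AcK27 level, in tags per kb of the region around a p65 peak, comes from regions called separately in 1 library per treatment, and 66.7% of the H3AcK27 tags lay in regions with TNFα and 50.9% with FSK/TNFα. A difference in this level is therefore not a measured change of acetylation at the peaks. At the 292 best TNFα peaks in H3AcK27 regions of both treatments, the median level was 92.3 normalized tags per kb with TNFα and 76.7 with FSK/TNFα (median log2 difference −0.20), and 80 of the 292 were higher with FSK/TNFα. At 355 best FSK/TNFα peaks the medians were 84.8 and 80.8 (−0.10), and 132 were higher. Best peaks called with FSK/TNFα only had a median difference of −0.06, and best peaks called with TNFα only −0.25. The median over all regions of a treatment was 28.5 per kb with TNFα and 29.2 with FSK/TNFα. At the best TNFα peaks the median region width was 5986 bp with TNFα and 4532 bp with FSK/TNFα.

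**Figure D4:**
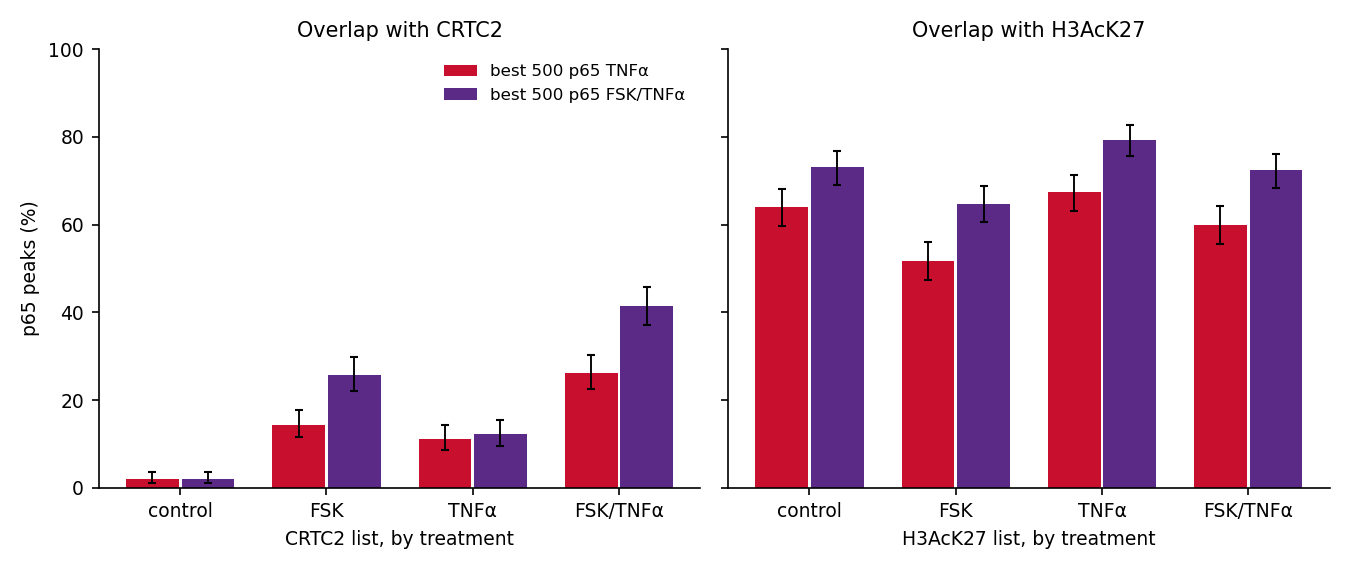
Percent of the best 500 p65 peaks with TNFα and with FSK/TNFα (y axis) that overlapped a CRTC2 peak (left) or an H3AcK27 region (right) called in each of the 4 treatments (x axis), with 95% Wilson intervals over peaks as error bars. The largest CRTC2 overlap was 41.4%, with FSK/TNFα for both factors, and the H3AcK27 overlaps ran from 51.8% to 79.4%.

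Overlap with CRTC2 separated the lists. CRTC2 peaks of the same treatment overlapped 56 of the 500 best TNFα peaks (11.2%, 8.73 to 14.3) and 207 of the best FSK/TNFα peaks (41.4%, 37.2 to 45.8). The CRTC2 list was longer with TNFα (19527 peaks) than with FSK/TNFα (14171), and with the same number of best-scored CRTC2 peaks from each the shares were 9.4% and 41.4%. Both the p65 list and the CRTC2 list moved this share. With the CRTC2 peaks of FSK/TNFα-treated cells, the best TNFα p65 peaks gave 26.2% (22.5 to 30.2), and with the CRTC2 peaks of TNFα-treated cells the best FSK/TNFα p65 peaks gave 12.2% (9.62 to 15.4). CRTC2 peaks of untreated cells overlapped 2.0% of each. CRTC2 and p65 of a treatment came from separate libraries that were called against the same input.

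Best p65 peaks called with FSK/TNFα only overlapped CRTC2 of the same treatment in 34.7% (29.7 to 40), and shared ones in 53.7% (46.3 to 60.9). With TNFα the values were 8.84% (6.26 to 12.4) and 15.7% (11 to 21.9). The shared best TNFα peaks overlapped CRTC2 of FSK/TNFα-treated cells in 51.7% (44.3 to 59.1), compared with the 15.7% for CRTC2 of TNFα-treated cells. Among them, the strongest peaks near Ccl2 and Csf1 overlapped a CRTC2 peak with FSK/TNFα and not with TNFα, and the Cxcl1 promoter peak did so in both treatments. Ranking by fold over input gave 4.2% and 9.4%.

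A κB match lay within 100 bp of the centre at 34.4% (30.4 to 38.7) of the best TNFα peaks and 36.8% (32.7 to 41.1) of the best FSK/TNFα peaks. Windows of the same length 2 kb to either side held one in 2.7% and 2.5%, the centres of H3AcK27 regions in 2.93% and 2.92%, and RefSeq promoters (200 bases before the start of 32815) in 3.18%. Shared peaks held a match in 57.6% (50.1 to 64.7) and 55.4% (48.0 to 62.5), and best peaks that were not shared in 22.3% (18.1 to 27.1) and 26.6% (22.1 to 31.7). Below the best 500 the shares were 7.77% and 6.37%. The narrower motif that the study used for NF-κB, whose opposite strand is a subset of the κB consensus, was present in 7.6% and 7.2%, compared with 0.4% and 0.3% of the windows 2 kb away. Ranking by fold over input lowered these to 2.6% and 2.2%.

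The κB matches gathered at the peak centres. Within 50 bp of the centre there were 102 matches in the 172 shared TNFα peaks and 109 in the 177 shared FSK/TNFα peaks. In peaks that were not shared there were 76 in 328 and 84 in 323. Per base, these were 47.1, 93.4, 20.7, and 14.8 times the density between 201 and 500 bp from the centre, where the counts were 13, 7, 22, and 34. The most frequent decamers are those that the best peaks of both lists had in common. GGGGAATTCC was present in 25 TNFα and 28 FSK/TNFα best peaks, GGGGATTTCC in 24 and 27, GGGAATTTCC in 24 and 24, and GGGAAATTCC in 23 and 22. The latter is the κB match of the peaks near Tmem176b and Cxcl5 printed above.

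**Figure D5:**
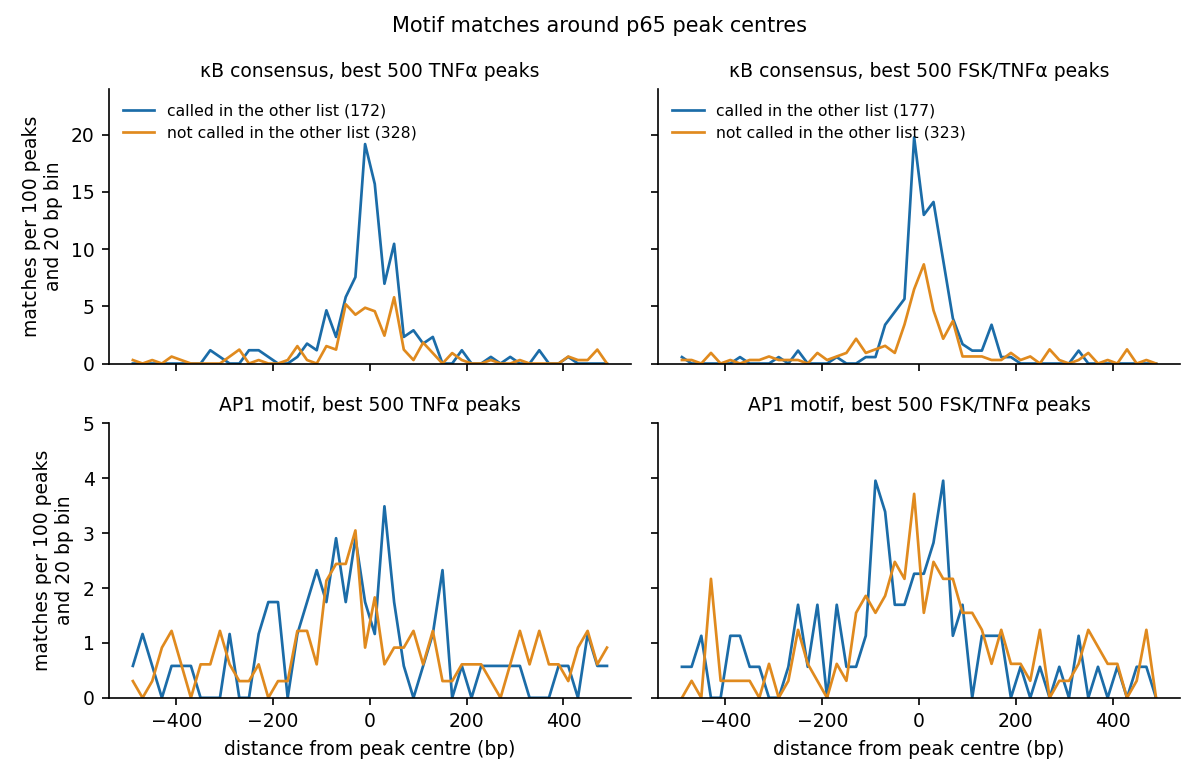
Matches per 100 peaks and 20 bp bin (y axis) by distance from the peak centre (x axis, bp) for the κB consensus and the AP1 motif, in best 500 peaks called in the other list and not called there. The κB matches of shared peaks reach 19.2 (TNFα) and 19.8 (FSK/TNFα) in the bin beside the centre, and the AP1 matches stay below 4 in every bin.

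Other motifs were less frequent. The AP1 motif lay in 15.0% (12.1 to 18.4) of the best TNFα peaks and 20.4% (17.1 to 24.2) of the best FSK/TNFα peaks, compared with 3.4% and 3.0% of windows 2 kb away, 9.15% and 7.72% of H3AcK27 region centres, and 3.66% of RefSeq promoters. The C/EBP motif lay in 15.8% (12.9 to 19.3) and 21.6% (18.2 to 25.4), compared with 8.4% and 8.1% of windows 2 kb away and 7.48% of promoters. Among best peaks that were not shared, it lay in 11.9% (8.82 to 15.8) with TNFα and 19.8% (15.8 to 24.5) with FSK/TNFα, and among shared peaks in 23.3% and 24.9%. The CREB half-site lay in 7.8% (5.76 to 10.5) and 8.6% (6.45 to 11.4), compared with 6.1% and 6.2% of windows 2 kb away and 15.6% of promoters.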

How the data were processed

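ChIP-seq peak lists of p65 were compared between TNFα and FSK/TNFα in 3T3-L1 cells, described by the study as adipocytes (1 library each), grouped by the sample labels. CRTC2 and H3AcK27 lists of the 4 treatments served as annotation. The submitters' processing notes name STAR, HOMER, and mm10, and versions were not given in the sources used here. Per the file headers, the authors called peaks of 163 bp with HOMER findPeaks in each library, keeping peaks at least 4-fold over input (Poisson p-value threshold 0.0001) and over the surrounding 10 kb, with the false discovery rate set to 0.001. The deposited signal is the number of tags in a peak normalized to 10000000 tags, and the deposited input signal is scaled alike. The deposited score counts 1 tag per position, without scaling or correction for input, and the deposited fold values are ratios to input or to local tags. The deposited focus ratio, a fraction, was not analysed here. Tags repeated at a position count in the signal, with a median of 3.79 tags per score unit with TNFα and 3.72 with FSK/TNFα.

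Peaks were ranked by score, ties by normalized tags. GENCODE mouse release 21 gave the protein-coding genes and their start sites, and 0 of 243429 peaks ran past a chromosome end in GRCm38. Exact motif matches were sought on either strand within 200 bp around the centre, and a palindromic match counted once. H3AcK27 level is normalized tags per kb of the region. The peaks, gene lists, and markers were chosen with earlier results of these data known. Named genes were those nearest the 10 best peaks of each list, the 10 shared pairs with the smallest sum of ranks, the 5 largest and 5 smallest ratios among pairs within both best 500 lists, and genes of the 6 lists with a best peak within 50 kb, and others are named as chosen later. The sequence of 1 peak is not reported here. Alternatives covered overlap, ranking, list length, input threshold, motif window, promoter extent, and chromosomes. The overlap, ranking, and motif code passed 6 checks on simulated data. Analyses ran in Python 3.11.15 with pandas 2.3.3, numpy 2.4.6, pysam 0.24.0, scipy 1.17.1, and matplotlib 3.10.9, and in samtools 1.23.1.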

Additional observations from a re-analysis of the deposited data

How the results depend on the processing

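Of 102 alternative values for 17 results, 52 stayed within the counting interval, or within 1.5 times for counts. Another 49 moved further, and 1 turned its direction. The last was the median log2 ratio of tags at shared pairs, which was -0.060 by fold over input. This ratio was 0 by findPeaks score and 0.393 by score per 10000000 tags. No paired analysis was possible because each treatment had 1 library. Values are given as TNFα, then FSK/TNFα. Sharing of all peaks was 9.65% and 5.50% when the overlap had to cover 50% of either peak, 9.22% and 5.32% with peaks at least 8-fold over input, and 10.3% of FSK/TNFα peaks with lists of equal length. The share of best peaks called in the other list was 25.6% and 26.0% at 8-fold, 51.6% and 47.6% for the 250 best, 22.2% and 21.9% for the 1000 best, 11.6% and 5.0% ranked by fold over input, and 28.2% and 31.0% ranked by normalized tags. Ranked by fold over input, 9 best peaks overlapped, 65 nearest genes were in both lists, promoters held 3.0% and 3.0%, H3AcK27 regions 34.6% and 22.4%, the NF-κB motif was in 2.6% and 2.2%, and CRTC2 overlapped 4.2% and 9.4%. The 250 and 1000 best peaks had 86 and 285 nearest genes in both lists. H3AcK27 overlap was 81.2% for the 250 best TNFα peaks, 53.6% and 56.7% for the 1000 best, 61.0% and 60.8% ranked by normalized tags, and 52.2% and 45.4% with regions at least 8-fold over input. The NF-κB motif was in 11.2% and 11.6% of the 250 best, in 4.4% and 4.2% of the 1000 best, in 5.2% of TNFα peaks with a 100 bp window, and, as the κB consensus, in 34.4% and 36.8%. CRTC2 overlapped 47.2% of the 250 best FSK/TNFα peaks, 7.7% and 27.5% of the 1000 best, and 6.8% and 33.2% with midpoints within 100 bp. Promoters from 2000 bp upstream to 500 bp downstream held 9.2% and 10.8%. Leaving out chromosomes 4 and 10 moved none of the results it was run on beyond these limits. The alternatives with a score of at least 10, equal numbers of CRTC2 peaks, score per 10000000 tags, and 20 kb in place of 50 kb were chosen after seeing the data. The cause of these movements was not tested. Sites that fell short of the calling threshold have no entry, so a site called in 1 list may hold p65 in both.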
